A study of Mus musculus with 4 samples.

Results

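The comparison described here sets Hilpda knockout macrophages against wild-type macrophages after 24 h with fatty acids, as the knockout array minus the wild-type array on the log2 scale for each gene. Of 22180 genes that the array measured with a probe set naming 1 gene, 9089 entered as members because their mean level over the 4 arrays of the series reached the 60th percentile of such probe sets, which was 4.20 on the log2 scale. Each group had 1 array, so every difference below is a measured value with no replicate error and no test. A gene is called past 1.5-fold when its difference was at least 0.585 in size on the log2 scale. Just inside the level threshold lay Cxcl2 and Mettl18, both at 4.20, with differences of -0.33 and -0.15. Just outside it lay Paip2b and Col3a1, both at 4.19, with differences of -0.24 and -0.49.

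The cells were bone marrow-derived macrophages of mice aged 8 to 12 weeks. Marrow was differentiated for 7 days in medium conditioned by L929 cells, which secrete the macrophage growth factor CSF1. Knockout cells came from HilpdaΔMΦ mice, in which floxed Hilpda is deleted in macrophages, and wild-type cells from Hilpda flox/flox littermates without the deletion. What drives the deletion the sources used here do not say. Cells of both genotypes received 600 µM fatty acids on albumin, 1 part palmitate to 2 parts oleate, so both sides of the comparison were lipid-loaded. Each array held a pool of RNA from 3 samples, and the spread between those samples was not measured. The other pair of arrays held the same genotypes after 12 h with the same fatty acids.

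HILPDA sits on lipid droplets, where it binds and inhibits adipose triglyceride lipase, the product of Pnpla2, which performs the first step of triglyceride breakdown. In macrophages it limits the release of fatty acids from droplets, and its gene is switched on by fatty acids and by hypoxia. Fatty acids set free inside the cell can be bound by carrier proteins, activate nuclear receptors of the PPAR family, enter beta-oxidation, serve as precursors of lipid mediators or, when saturated, stress the endoplasmic reticulum. The comparison asks which transcripts differed between loaded cells with and without the gene.

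Hilpda itself differed little at 24 h, and the lipase and the main droplet coat protein lay close together in the genotypes. At 12 h Hilpda stood at 5.93 in wild type and 5.41 in knockout, and at 24 h at 5.47 and 5.27. The 24 h difference of -0.20 ranked 1481 from the lowest of 9089. Its probe set may lie outside the deleted part of the gene, which the labels do not give, so it checks the genotype only in part. Pnpla2 was at 9.19 and 9.22 at 12 h and at 9.16 and 9.17 at 24 h, a difference of 0.01. Plin2, which coats droplets and is a common measure of lipid loading, was at 11.93 on both 12 h arrays and at 24 h at 11.82 and 12.00 in wild type and knockout, which differ by 0.18.

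All 8 macrophage markers checked were members, at levels from 8.21 to 12.8. Their mean was 11.01 on both 12 h arrays, 11.3 in wild type at 24 h and 11.1 in knockout at 24 h. The defining markers of neutrophils, mast cells, B cells, T and NK cells and adipocytes that were checked (Elane, Cpa3, Cd79a, Cd3e, Adipoq and others) were all below the level filter, and the highest on any array was the B cell marker Cd79b at 3.10. The wider lists for these cells held a few members, namely Mmp9, Csf3r, Ighm, Il7r and Lipe. Flt3, Zbtb46 and Xcr1, which define dendritic cells, lay between 2.10 and 3.15, while Cd209a, also found on macrophages, was a member. Stromal cell and fibroblast markers were present: 5 of 8 were members, and the mean of the 8 was 4.95 and 4.48 in wild type and knockout at 12 h and 5.43 and 4.88 at 24 h. The muscle markers Ckm, Mylpf, Acta1 and Myh4 were all below the level filter, with means of 2.75, 2.61 and 2.44 on the first 3 arrays and 3.58 in knockout at 24 h.

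At 24 h, 212 genes were higher in knockout by at least 1.5-fold (2.33% of the members) and 199 were lower (2.19%). Past 2-fold lay 28 higher and 24 lower genes. Of all members 53.7% lay above 0 and 46.3% below. The median difference was 0.02, its SD over genes 0.274 and its central 95% -0.56 to 0.57. Dim genes made up much of the count. Among the 2273 dimmest members, at levels of 4.20 to 5.67, 9.02% of genes were past 1.5-fold, 111 higher and 94 lower, against 1.5% among the 2272 brightest, at 8.01 to 12.9, with 10 higher and 24 lower. At 12 h the same sets held 3.61% and 0.044%. Of the lower genes 24 had a knockout value below the level threshold at 24 h, and of the higher genes 50 had such a wild-type value, so these passed the filter through other arrays.

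**Figure D1:**
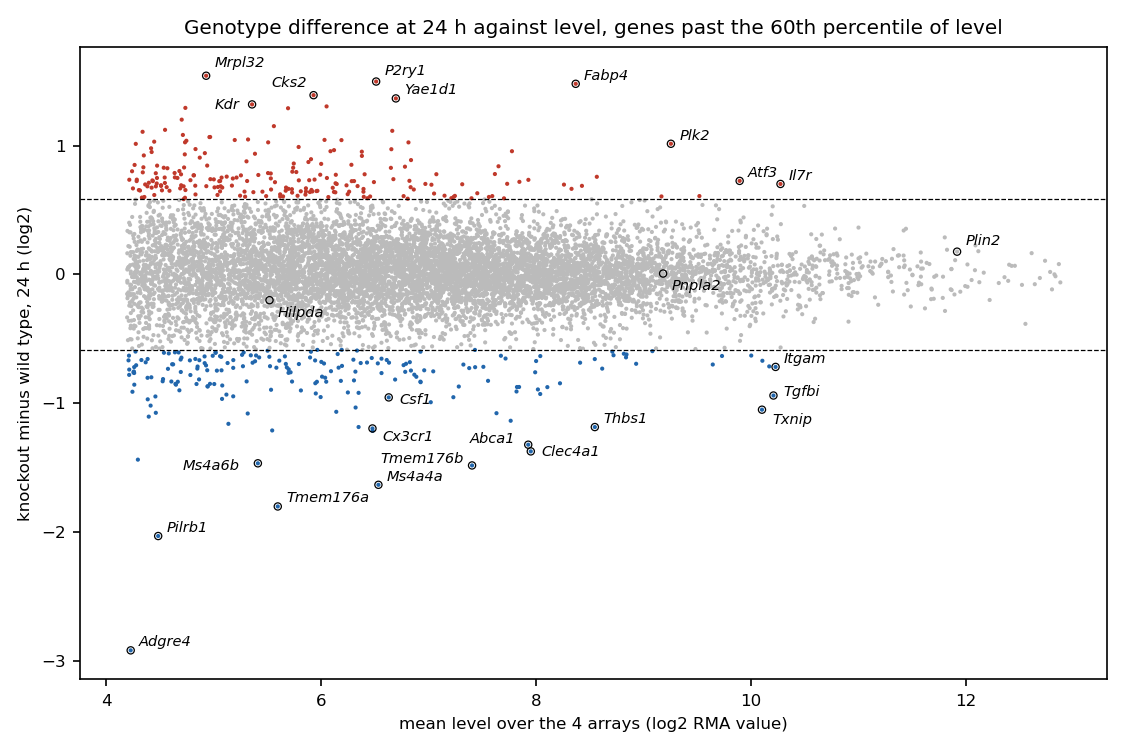
Each of the 9089 genes is a point, with its mean log2 level over the 4 arrays on the horizontal axis and the log2 difference knockout minus wild type at 24 h on the vertical axis; dashed lines mark 1.5-fold, red points are the 212 higher genes and blue points the 199 lower ones. The spread narrows with level, Adgre4 lies lowest at -2.92, and Hilpda, Pnpla2 and Plin2 lie between the dashed lines.

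The wild-type 24 h array lay farthest from the others, which bears on every result at this time. Over the members it differed past 1.5-fold from the wild-type 12 h array in 698 genes and from the knockout 12 h array in 785. The knockout 24 h array differed from those same arrays in 452 and 434 genes. The genotypes differed in 101 genes at 12 h (1.11% of the members) and in 411 at 24 h (4.52%). Of the 212 higher genes, 146 (68.9%) had the wild-type 24 h array farthest from the mean of the other 3 arrays, and 62 (29.2%) the knockout 24 h array. For the 199 lower genes the counts were 151 (75.9%) and 44 (22.1%). Over all members the wild-type 24 h array was farthest for 38.1% of genes and the knockout 24 h array for 25.8%. The called genes were picked for a gap between the 24 h arrays, so a 24 h array was likely to be farthest by that choice. Their shares are therefore not directly comparable with those over all members. Each of these comparisons shares arrays with the next, and leaving out the wild-type 24 h array leaves no genotype comparison at 24 h. Whether its position came from the genotype or from that pool or array cannot be told apart with 1 array a group.

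**Figure D2:**
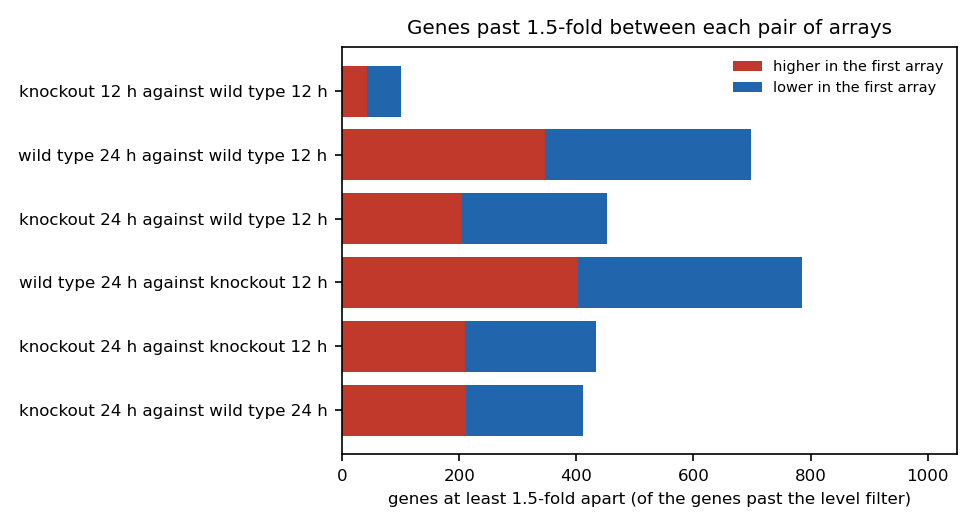
Bars give, for each of the 6 pairs of arrays, the number of member genes at least 1.5-fold higher (red) or lower (blue) on the first array named. The wild-type 24 h array has the longest bars against the 12 h arrays, 698 and 785 genes, and the 12 h genotypes the shortest, 101.

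The largest differences lay in membrane proteins of myeloid cells, which were at their highest in wild type at 24 h. Of the 8 members among the MS4A and TMEM176 genes, which encode related proteins that cross the membrane 4 times, 5 were lower in knockout past 1.5-fold, against 2.19% of all members, and all 8 lay below 0, against 46.3%. Their median was -1.23, against 0.02 over all members. At 12 h their median was -0.07. The list had 15 measured genes, of which 7 were under the level filter. With the filter at the 40th percentile its median was -0.51. At 12 h Tmem176a stood at 5.36 in wild type and 5.14 in knockout, and at 24 h at 6.84 and 5.04, 3.49-fold lower. Tmem176b, its neighbour on chromosome 6, was at 6.89 and 6.55 and then at 8.83 and 7.35, 2.80-fold lower. Only the wild-type 24 h array was high for Tmem176a, whereas Tmem176b was also higher in knockout at 24 h than at 12 h. Ms4a4a was at 5.68 and 5.75 at 12 h and at 8.17 and 6.54 at 24 h, a difference of -1.63. For Ms4a6b the values were 4.88 and 4.54, then 6.85 and 5.38, a difference of -1.47. Ms4a6c stood at 6.68 and 6.65, then at 7.88 and 6.89, a difference of -0.99. These 3 genes lie next to each other among the members on chromosome 19, and each had its lowest 24 h value in knockout without a matching gap at 12 h. Ms4a14 at -0.51, Ms4a7 at -0.25 and Ms4a6d at -0.09 stayed within 1.5-fold.

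Adgre4, an adhesion G protein-coupled receptor of macrophages and a relative of the macrophage marker Adgre1, had the lowest difference of all members. It stood at 3.23 in wild-type cells and 2.61 in knockout cells at 12 h, and at 7.0 and 4.08 at 24 h, 7.57-fold lower. It was above the level threshold on the wild-type 24 h array alone, so it passed the filter through that array. Adgre1 itself was at 11.28 and 11.29, then at 11.82 and 11.57, a difference of -0.25. The paired receptors of the PILR family, which share ligands and signal in opposite ways, were also at their highest in wild type at 24 h, but lay close together in the genotypes at 12 h. The activating Pilrb1 was at 3.90 and 3.89 at 12 h and at 6.09 and 4.06 at 24 h, 4.09-fold lower. Like Adgre4, Pilrb1 was above the level threshold on the wild-type 24 h array alone and passed the filter through that array. Its inhibitory partner Pilra was at 3.84 and 3.73, then at 5.93 and 5.08, 1.80-fold lower. The 25 Fc and paired receptors had a median of 0.01. Past 1.5-fold 2 were lower, the PILR genes just named, and 1 was higher, against 2.19% and 2.33% of all members. That last gene, Sirpb1c of the signal-regulatory family, was at 5.33 in wild-type cells and 6.34 in knockout cells at 12 h and at 4.86 and 5.60 at 24 h, so the knockout was higher at both times.

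Of 24 pattern recognition receptors 19 lay below 0, against 46.3% of all members, with a median of -0.19. Past 1.5-fold 3 were lower, against 2.19% of all members, and 0 higher. At 12 h the median was 0.03. The 3 were the C-type lectins Clec4a1 and Clec4a3, neighbours on chromosome 6, and Tlr9, the receptor for unmethylated DNA. Clec4a1 was at 6.86 and 6.98 at 12 h and at 9.67 and 8.30 at 24 h, 2.59-fold lower. Clec4a3 stood at 7.17 and 7.12, then at 9.22 and 8.46, 1.69-fold lower. Tlr9 was at 7.15 and 7.17, then at 8.50 and 7.87, 1.55-fold lower. In each, both genotypes were higher at 24 h than at 12 h and the wild type was the higher of the pair. Tlr2 at -0.52, Tlr1 at -0.49 and the lipopolysaccharide coreceptor Cd14 at -0.45 were within 1.5-fold, as was Tlr4 at -0.09.

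Both chains of the MHC class II molecule I-A were lower in knockout at 24 h, while class I genes lay near 0. H2-Aa, the class II alpha chain, was at 6.02 in wild-type cells and 6.16 in knockout cells at 12 h and at 6.87 and 5.95 at 24 h, 1.89-fold lower. H2-Ab1, the beta chain and its neighbour on chromosome 17, was at 7.49 and 7.61, then at 8.53 and 7.66, 1.83-fold lower. The knockout values hardly moved between the times and the wild-type values were higher at 24 h. H2-Eb1 at -0.51 and H2-DMa, which loads peptide, at -0.50 were within 1.5-fold. Among class I genes H2-K1 was at 0.08, B2m at 0.11 and the peptide transporter gene Tap1 at 0.06. The list of 16 had 2 lower past 1.5-fold, against 2.19% of all members, and 0 higher, with a median of 0.05.

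**Figure D3:**
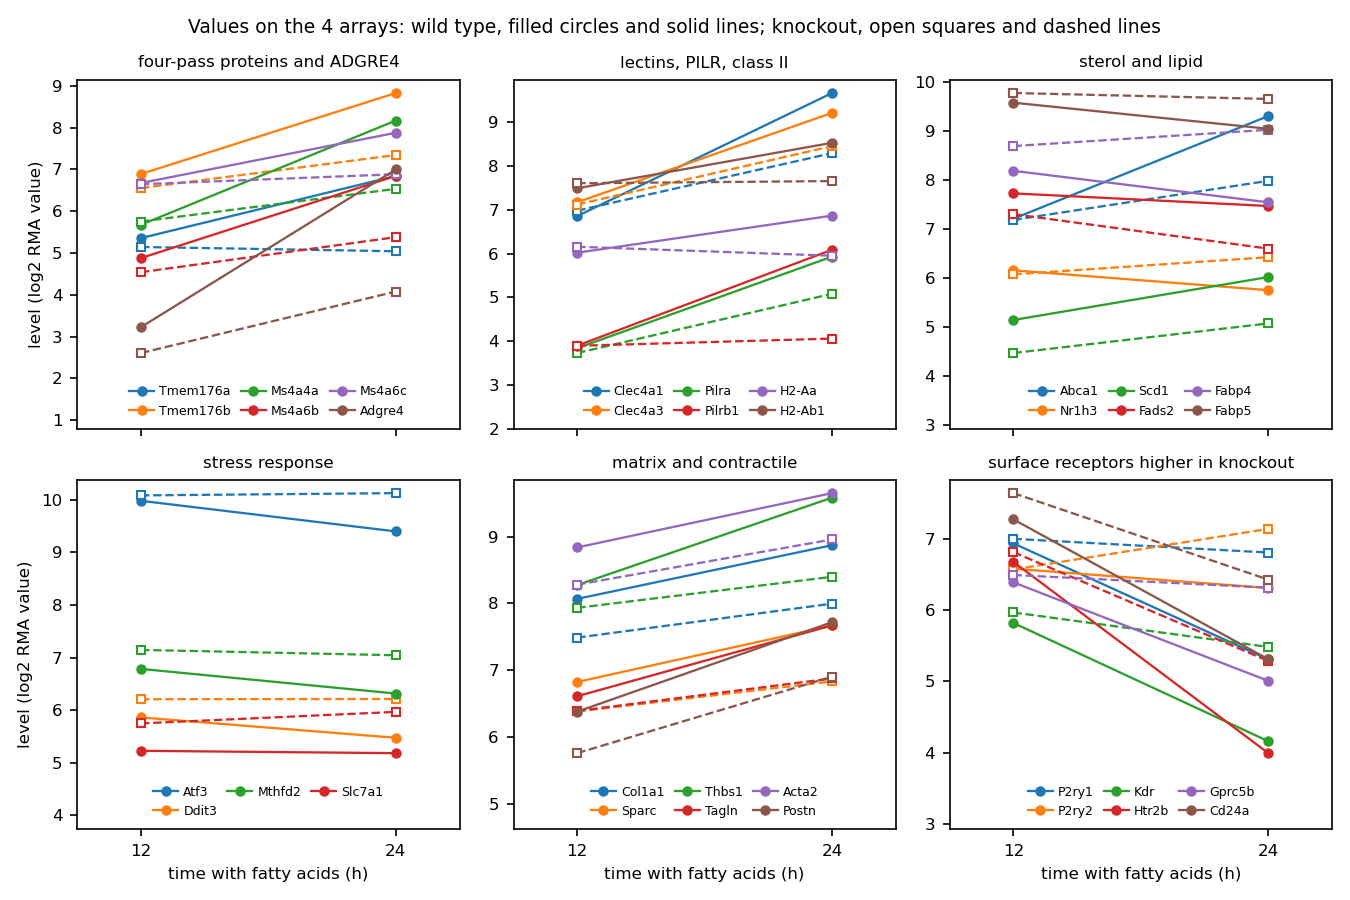
Each panel gives log2 levels against time with fatty acids for genes of a functional group, wild type as filled circles and solid lines, knockout as open squares and dashed lines; every point is 1 array of pooled RNA and has no error bar. In the first 2 panels the genotypes lie closer at 12 h than at 24 h, where Ms4a4a was at 8.17 in wild type and 6.54 in knockout. Adgre4 was already lower in knockout past 1.5-fold at 12 h, with a difference of -0.62. In the matrix panel the knockout lies below at both times.

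Genes that define macrophages split. Of 27 members of the identity and transcription factor list, 3 were lower and 2 higher past 1.5-fold, against 2.19% and 2.33% of all members. In this list 19 lay below 0, against 46.3% of all members, and the median was -0.14 at 24 h and 0.00 at 12 h. Cx3cr1, the fractalkine receptor, was at 6.99 and 6.71 at 12 h, and at 24 h at 6.71 and 5.51, 2.29-fold lower. Here the knockout 24 h array was the one apart. Itgam, the CD11b chain of the complement receptor, was at 10.18 and 10.12, then at 10.66 and 9.95, 1.65-fold lower. Nr4a1, an orphan nuclear receptor needed for patrolling monocytes, was at 4.94 and 4.60, then at 5.48 and 4.74, 1.67-fold lower. Higher were Bhlhe41 by 0.76 and Bhlhe40 by 0.61, a pair of repressors that act in macrophage self-renewal and in the circadian clock. Bhlhe40 lay within 1.5-fold under each of the 3 other scalings, at 0.57 to 0.58. Csf1r, the receptor for CSF1, was at -0.26, and its ligand gene Csf1 was at 6.66 and 5.92 at 12 h and at 7.44 and 6.49 at 24 h, with differences of -0.74 and -0.96. Csf1 is also made by stromal cells, whose markers were lower at both times, and their part in its value was not tested. The markers of alternative activation had 3 of 8 lower and 1 higher past 1.5-fold, against 2.19% and 2.33% of all members, with a median of -0.42. The list had 24 measured genes, of which 16 were under the level filter. With the filter at the 40th percentile its median was -0.30. The 3 lower genes were Klf4 at -0.71, fibronectin gene Fn1 at -0.66 and Il4ra at -0.63. Fn1 was at -0.37 at 12 h, and a part of stromal cells in its value was not tested. The mannose receptor gene Mrc1 stood at 7.11 and 7.37 at 12 h and at 10.31 and 9.76 at 24 h, within 1.5-fold. The higher gene of the list was Egr2, at 5.32 and 5.03, then at 4.57 and 5.30.

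Some carriers of free fatty acids were higher in knockout. Of 12 members for fatty acid uptake, binding and activation, 3 were higher past 1.5-fold, against 2.33% of all members, 0 were lower and 9 lay within it, with a median of 0.11. All 3 were fatty acid-binding proteins, small cytosolic carriers. Fabp4, a PPAR target, was at 8.19 in wild-type cells and 8.70 in knockout cells at 12 h and at 7.55 and 9.03 at 24 h, 2.79-fold higher. Fabp5, the neighbour of Fabp4 on chromosome 3, was at 9.59 and 9.78, then at 9.05 and 9.66, 1.53-fold higher, but within 1.5-fold at 0.57 with median centring. Fabp7 was at 7.34 and 7.52, then at 4.78 and 5.51, 1.65-fold higher. Fabp4 was higher in knockout at both times, whereas for Fabp7 both genotypes were lower at 24 h and the knockout less so. The uptake receptor gene Cd36 at 0.19, Lpl, lipoprotein lipase, at 0.11 and the acyl-CoA synthetase gene Acsl5 at 0.09 lay near 0.

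Among 6 acyl-CoA thioesterases, which release fatty acids from coenzyme A, 2 were higher past 1.5-fold, against 2.33% of all members. Of the rest 0 were lower and 4 within 1.5-fold, the lowest Acot7 at -0.34. Acot9, a mitochondrial member, was at 4.75 and 5.34 at 12 h and at 3.91 and 4.94 at 24 h, 2.04-fold higher. Acot13 was at 8.39 and 8.49, then at 7.89 and 8.56, 1.59-fold higher. In the lipolysis list of 7, the ATGL coactivator gene Abhd5 was the 1 gene past 1.5-fold, at 7.85 and 7.96, then at 6.92 and 7.52. Its difference of 0.60 sat just over the limit and lay under it with median centring, at 0.57, and with quantile normalization, at 0.584. Lipa, the lysosomal lipase, was at 0.07. None of the 9 droplet coat genes and none of the 11 genes of triglyceride and sterol ester synthesis was past 1.5-fold, with medians of 0.04 for both. Dgat1, which completes triglyceride synthesis, was at 0.08.

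The PPAR and LXR lists each held genes past 1.5-fold. Of 14 PPAR genes Fabp4 was the 1 past 1.5-fold, against 2.33% of all members higher. In that list 9 lay above 0, against 53.7% of all members, with a median of 0.14. Pparg itself was at 7.90 and 8.12 at 12 h and at 8.13 and 8.63 at 24 h, a difference of 0.49. Other targets lay lower, Angptl4 at 0.17, Cpt1a at -0.04 and Pdk4 at -0.16. Beta-oxidation had 19 of 25 genes above 0, against 53.7% of all members, and 0 past 1.5-fold. Its median was 0.08, with its largest values in Acadl and Pex11a, both 0.41. Of 11 LXR genes 2 were lower and 1 higher past 1.5-fold, against 2.19% and 2.33% of all members. Abca1, which exports cholesterol to apolipoproteins, was at 7.22 and 7.19 at 12 h and at 9.31 and 7.99 at 24 h, 2.50-fold lower. Nr1h3, the gene of LXR alpha, was at 6.16 and 6.08, then at 5.76 and 6.43, 1.59-fold higher. Abcg1, the partner exporter, was at -0.06 and Apoe at -0.14, near 0.

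The lipid synthesis genes farthest from 0 at 24 h were desaturases. Scd1, which makes oleate from stearate, was at 5.15 in wild-type cells and 4.47 in knockout cells at 12 h and at 6.03 and 5.08 at 24 h, 1.93-fold lower. Fads2, the delta-6 desaturase gene, was at 7.73 and 7.31, then at 7.48 and 6.61, 1.83-fold lower. Both were lower in knockout at each time. Fads3 was at -0.56, Fasn at -0.23 and Fads1 at -0.10, and the list of 13 had a median of -0.12. Cholesterol synthesis had 13 of 19 genes below 0 at 24 h, against 46.3% of all members, with a median of -0.11. At 12 h all 19 lay below 0, against 49.6% of all members, with a median of -0.46. At 24 h 1 of the 19 was lower past 1.5-fold, against 2.19% of all members, and 0 higher. That gene was Mvk, mevalonate kinase, at 5.20 and 4.94, then at 5.11 and 4.42. Fdps stood at 7.65 and 6.90 at 12 h and at 6.73 and 6.18 at 24 h, differences of -0.75 and then -0.55. Hmgcs1 at -0.06 and Sqle at 0.06 lay together at 24 h. Sphingolipid enzymes had 0 of 22 past 1.5-fold. Ugcg, which makes glucosylceramide, was at -0.50.

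Lipid mediator genes held 3 lower and 0 higher genes of 17 past 1.5-fold, against 2.19% of all members lower. Hpgd, the enzyme that inactivates prostaglandins, was at 7.84 and 7.56 at 12 h and at 8.39 and 7.49 at 24 h, 1.88-fold lower. Gpr84, a receptor for medium-chain fatty acids, was at 6.63 and 6.20, then at 5.10 and 4.21, 1.86-fold lower. Cysltr1, a leukotriene receptor, was at 6.60 and 6.36, then at 7.41 and 6.70, 1.63-fold lower. The synthesis genes of the same list lay near 0, with Alox5ap at 0.03, Lta4h at 0.04 and Tbxas1 at 0.05.

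Of 26 genes of the ATF4 and CHOP stress response 4 were higher in knockout past 1.5-fold, against 2.33% of all members, and 0 lower. Of the 26, 19 lay above 0, against 53.7% of all members, with a median of 0.22, the highest among the lists with at least 20 members. At 12 h the median was 0.08. Atf3, a stress-induced repressor, was at 9.98 in wild-type cells and 10.08 in knockout cells at 12 h and at 9.40 and 10.12 at 24 h, 1.66-fold higher. Ddit3, which encodes CHOP, was at 5.86 and 6.21, then at 5.48 and 6.21, 1.67-fold higher. Mthfd2, a mitochondrial folate enzyme, was at 6.78 and 7.15, then at 6.32 and 7.04, 1.66-fold higher. For these the knockout kept its 12 h level and the wild type was lower at 24 h. Slc7a1, a transporter of cationic amino acids, was at 5.23 and 5.75, then at 5.18 and 5.97, higher in knockout at each time. Asns, asparagine synthetase, was at 0.55, Atf5 at 0.54 and Atf4 itself at 0.37. Sesn2 was at -0.55, Cebpb at -0.18 and Ppp1r15a at -0.15, on the other side.

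The promoter of Atf3 is shown because the gene was past 1.5-fold and its promoter carries a match to TTGCATCA, the letters of a C/EBP-ATF response element. It spans the 250 bases before the RefSeq start, chr1:191183334-191183583 on the minus strand of GRCm38.p6, 5′ to 3′, with the match in capitals.
Atf3: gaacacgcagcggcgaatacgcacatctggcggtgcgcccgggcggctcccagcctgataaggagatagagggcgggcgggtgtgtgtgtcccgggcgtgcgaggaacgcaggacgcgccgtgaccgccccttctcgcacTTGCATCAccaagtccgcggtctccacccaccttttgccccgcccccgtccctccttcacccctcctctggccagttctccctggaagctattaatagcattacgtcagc
The match begins 110 bases before the start. Searched on both strands, these letters occurred in 2 of 20 list members with a promoter in the table, Atf3 and Nupr1, and in 0.791% of all 32851 promoters. A match of letters is a description and not a measured binding site.

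Other stress and protein-handling lists had lower medians or fewer genes past 1.5-fold. Chaperones and unfolded protein response genes had 0 of 23 past 1.5-fold and a median of 0.13. Of the 23, 16 lay above 0, against 53.7% of all members. Pdia6, a disulfide isomerase, was at 9.20 and 9.32 at 12 h and at 8.38 and 8.96 at 24 h, and Sdf2l1 was higher by 0.54. Hspa5, the chaperone BiP, was at 0.35, and Herpud1 at -0.32. NRF2 and glutathione genes had 0 of 23 past 1.5-fold, with Gsto1 at 0.37 and Hmox1 at -0.11. Heat shock proteins had 0 of 10, from -0.43 for Hspa1b to 0.37 for Hspd1. Proteasome subunits had 0 of 35, with Psmb5 at 0.57.

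Of 64 mitochondrial ribosomal proteins, 54 lay above 0 in knockout and 10 below, against 53.7% of all members above 0. Past 1.5-fold 2 were higher, a share near the 2.33% of all members, and 0 lower. The median was 0.17 at 24 h and 0.03 at 12 h. Mrpl32 had the highest difference of all members. It was at 4.68 and 5.05 at 12 h and at 4.22 and 5.76 at 24 h, 2.92-fold higher, with the knockout 24 h array apart. The other, Mrpl22, sat at the limit, at 4.42 in wild-type cells and 5.01 in knockout cells at 24 h, and lay within 1.5-fold under the other scalings, at 0.55 to 0.58. Among 65 oxidative phosphorylation subunits 44 lay above 0 and 0 were past 1.5-fold, with a median of 0.06 and Ndufa12 highest at 0.54. Cytosolic ribosomal proteins had a median of 0.04 over 40, with Rpl37 the 1 past 1.5-fold at 0.85.

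A ribosome biogenesis list was drawn up after its leading genes had been seen, so its count supports nothing. Of its 48 members 39 lay above 0, against 53.7% of all members, and 5 were higher past 1.5-fold, against 2.33%. The median was 0.21. Without those 5 genes 34 of 43 lay above 0, with a median of 0.19. At 12 h the median was -0.03. Yae1d1, an adaptor for iron-sulfur cluster insertion into a ribosome recycling factor, was at 7.06 and 7.04 at 12 h and at 5.66 and 7.03 at 24 h, 2.58-fold higher, but higher by 0.65 on the log2 scale when its probe sets were averaged. Rpp40, a subunit of RNase P, was at 4.47 and 4.41, then at 3.69 and 4.80, 2.16-fold higher. Gpatch4 was at 5.58 and 5.34, then at 4.84 and 5.78, 1.92-fold higher. In all 3 the wild-type 24 h value was the lowest. Npm1 at 0.01 and Ncl at -0.10, abundant nucleolar proteins, lay near 0.

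Thioredoxin-interacting protein and its relative ARRDC4, alpha-arrestins that restrain glucose uptake and are induced through the glucose sensors ChREBP and MondoA, were lower in knockout. Txnip was at 9.88 in wild-type cells and 9.68 in knockout cells at 12 h and at 10.95 and 9.90 at 24 h, 2.07-fold lower. Arrdc4 was at 5.12 and 4.82, then at 5.88 and 4.72, 2.24-fold lower. The wild-type 24 h array was the high one for both. Arrdc3 was at -0.57, Arrdc2 at -0.25 and Mlxip, which encodes MondoA, at -0.25. This list too was drawn up after values were seen, with 2 of 9 lower past 1.5-fold, against 2.19% of all members, and 0 higher. The HIF and glycolysis list of 29 had 1 higher and 1 lower gene past 1.5-fold, against 2.33% and 2.19% of all members. Its median was -0.01. Hk3, hexokinase 3, was at 7.77 and 7.86, then at 7.03 and 7.81, and Slc2a6, a hexose transporter, was at 6.51 and 6.34, then at 6.54 and 5.95.

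The promoters of Txnip and Arrdc4 are shown because the pair differed together and because Txnip carries a spaced pair of E-boxes, CACGNG and again CACGNG after 5 bases of any kind, through which carbohydrate response elements are described. Both are the 250 bases before the RefSeq start in GRCm38.p6, 5′ to 3′, Txnip at chr3:96557707-96557956 on the plus strand and Arrdc4 at chr7:68749239-68749488 on the minus strand. Capitals mark the spaced match in Txnip and the match to CACGTG in Arrdc4.
Txnip: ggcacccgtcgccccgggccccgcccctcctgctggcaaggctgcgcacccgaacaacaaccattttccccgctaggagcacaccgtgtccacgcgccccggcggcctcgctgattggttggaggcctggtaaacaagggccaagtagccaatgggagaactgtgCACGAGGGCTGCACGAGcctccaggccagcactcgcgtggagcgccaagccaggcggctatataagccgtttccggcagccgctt
Arrdc4: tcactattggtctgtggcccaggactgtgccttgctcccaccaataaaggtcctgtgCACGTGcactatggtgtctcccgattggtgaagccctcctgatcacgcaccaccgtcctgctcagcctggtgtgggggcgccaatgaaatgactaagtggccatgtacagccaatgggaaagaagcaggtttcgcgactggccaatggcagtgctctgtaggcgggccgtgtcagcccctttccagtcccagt
The Txnip match begins 85 bases before the start and the Arrdc4 match 193 bases before it. On either strand, the spaced motif was found in 15 of all 32851 promoters, or 0.0457%, and CACGTG in 6.02%. Arrdc4 had no match to the spaced motif in this window, which says only that those letters are absent there. Among members with a promoter in the table, CACGTG was in 10.4%, in 23 of 162 higher genes (14.2%) and in 8 of 141 lower genes (5.67%).

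Of 28 interferon-stimulated genes 18 lay below 0 in knockout, against 46.3% of all members, with a median of -0.11. Past 1.5-fold 1 was lower, near the 2.19% of all members, and 0 higher. Ifit1, which binds foreign RNA caps, was at 4.83 in wild-type cells and 4.13 in knockout cells at 12 h and at 4.98 and 3.91 at 24 h, 2.11-fold lower. It was lower in knockout at both times, and its 24 h knockout value was below the level threshold. Oas1g at -0.57, Trim30a at -0.53 and Oas2 at -0.51 came next, while Bst2 was at 0.39 and Rsad2 at 0.10. Of 4 guanylate-binding and immunity-related GTPases past the level filter, 0 were past 1.5-fold, from Igtp at -0.17 to Irgm1 at 0.01.

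A window of 30 bases from the Ifit1 promoter is shown because it holds both of its matches to TTTC, any 2 bases and TTTC again, the core of an interferon-stimulated response element. It lies at chr19:34640784-34640813 on the plus strand of GRCm38.p6, 5′ to 3′, with the matches in capitals.
Ifit1: gTTTCACTTTCcagtctcagTTTCAGTTTC
The matches begin 104 and 85 bases before the RefSeq start. On either strand these letters were in 10 of 20 list members with a promoter in the table (50%), among them Bst2 and Rsad2, and in 2.98% of all promoters. As above, a match is no measured site.

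Most inflammatory cytokine and chemokine genes lay within 1.5-fold. Of 17 cytokine and inflammasome genes 2 were lower past 1.5-fold, against 2.19% of all members, and 0 higher. Nfkbiz, an inducible regulator of NF-kappaB, was at 6.44 and 5.94 at 12 h and at 6.84 and 6.01 at 24 h, 1.77-fold lower. Nlrp3, the inflammasome sensor, was at 5.73 and 5.60, then at 6.56 and 5.89, 1.59-fold lower. Tnf was at 0.30 and Casp1 at 0.00. Bcl3, another atypical member of the same inhibitor family, was at 7.46 and 7.53, then at 8.31 and 7.23, 2.11-fold lower. Of 10 chemokines 1 was higher past 1.5-fold, against 2.33% of all members. It was Ccl4, at 5.91 and 6.12, then at 5.53 and 6.58, with Ccl3 at 0.49 and Ccl5 at 0.44 within 1.5-fold. Of the 10 chemokines 7 lay below 0, against 46.3% of all members, with a median of -0.06. The lowest was Cxcl12 at -0.51. Of the complement genes Cfp, properdin, was at 9.53 and 9.73, then at 10.15 and 9.52, 1.55-fold lower, while C1qa was at -0.30 and C1qc at 0.00.

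P2ry1 and several other genes for receptors and signalling proteins, grouped here after their values were seen, were higher in knockout past 1.5-fold. P2ry1, a receptor for ADP, was at 6.94 in wild-type cells and 7.0 in knockout cells at 12 h and at 5.31 and 6.81 at 24 h, 2.83-fold higher. P2ry2, a receptor for ATP and UTP, was at 6.58 and 6.57, then at 6.31 and 7.14, 1.78-fold higher, with the knockout 24 h array farthest from the rest. The other 5 purine receptor genes lay below 0, from P2ry6 at -0.34 to P2rx4 at -0.12. Kdr, the VEGF receptor 2 gene, was at 5.82 and 5.97, then at 4.16 and 5.48, 2.50-fold higher. Htr2b, a serotonin receptor, was at 6.68 and 6.81, then at 4.0 and 5.29, 2.45-fold higher. Gprc5b, an orphan receptor, was at 6.39 and 6.49, then at 5.01 and 6.31, 2.47-fold higher. For Kdr and Htr2b both genotypes were lower at 24 h than at 12 h, and the knockout less so. Il7r, the interleukin 7 receptor chain, was at 10.25 and 10.52, then at 9.81 and 10.52, 1.63-fold higher. Plk2, a stress-responsive kinase, was at 9.25 and 9.38, then at 8.69 and 9.70, 2.02-fold higher. Rgs1, which shortens G protein signals, was at 6.68 and 7.03, then at 6.26 and 7.29, 2.04-fold higher. Also above 2-fold were the nucleoside transporter gene Slc28a2 by 1.07 and the MAP kinase phosphatase gene Dusp9 by 1.05. The surface protein gene Cd24a differed by 1.12, but by 0.51 when its probe sets were averaged.

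Markers of lipid-associated macrophages, a state described in fat tissue and plaques, had 3 of 23 higher past 1.5-fold, against 2.33% of all members, and 0 lower. Fabp5 was among them, and its call ended with median centring. Of the 23, 19 lay above 0, against 53.7% of all members, with a median of 0.17. The 3 were Fabp4, Fabp5 and Mmp12, a macrophage elastase at 8.07 and 8.01 at 12 h and at 8.13 and 8.83 at 24 h. Syngr1 was at 0.57, Atp6v0d2 at 0.54 and Cd9 at 0.46, whereas Trem2 was at 0.02 and Apoe at -0.14. In the lysosomal list of 46, 34 lay above 0 and 1 was past 1.5-fold, against 53.7% and 4.52% of all members. That gene, Ctsc, the protease that activates granule proteases, was lower, at 9.44 and 9.25, then at 10.30 and 9.60. The proton pump subunits Atp6v1g1 at 0.57 and Atp6v1d at 0.41 were on the higher side.

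**Figure D4:**
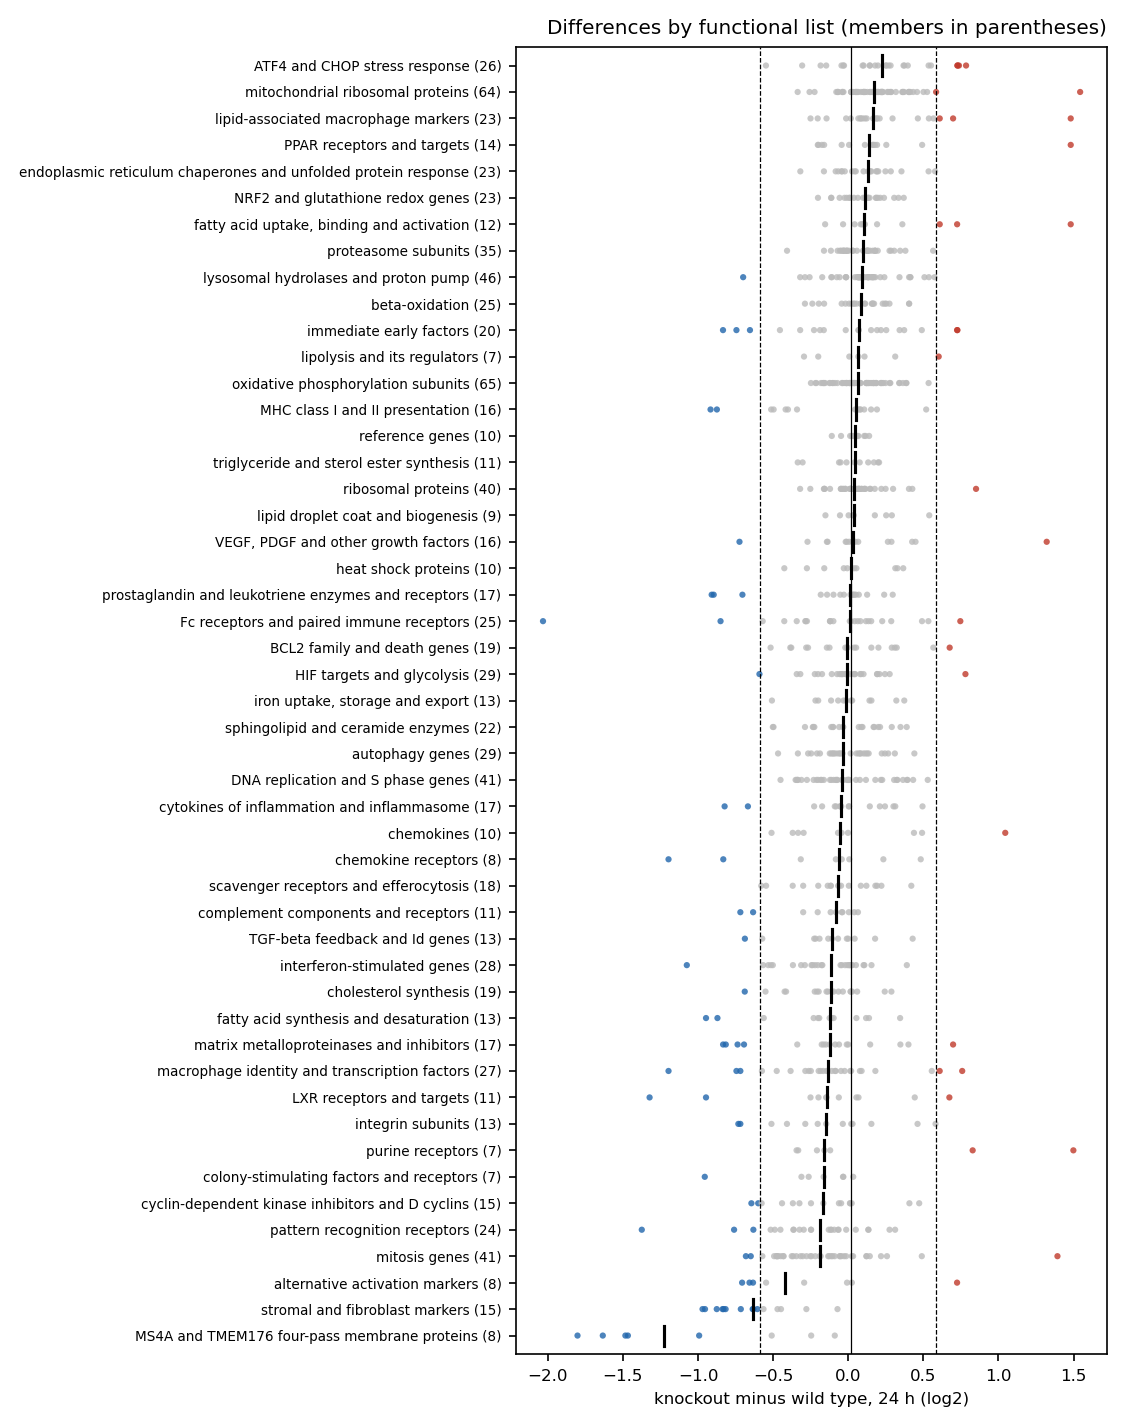
Each row is a functional list with at least 7 members (number in parentheses), each point the log2 difference knockout minus wild type at 24 h of a member, with genes past 1.5-fold in red (higher) or blue (lower); the short black bar is the median of the list and the thin vertical line that of all members, 0.02. The medians run from -1.23 for the MS4A and TMEM176 genes to 0.22 for the ATF4 and CHOP list, and most points of most lists lie between the dashed 1.5-fold lines.

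Further large differences fell outside the lists. Of the 411 genes past 1.5-fold, 322 were in none of the 61 lists drawn up first. Some of those 322 were in the 6 lists added later. Lifr, the receptor for leukaemia inhibitory factor, was at 5.60 in wild-type cells and 5.48 in knockout cells at 12 h and at 7.28 and 6.21 at 24 h, 2.09-fold lower. Gab1, an adaptor of receptor tyrosine kinases, was at 5.69 and 5.81, then at 7.41 and 6.38, 2.05-fold lower. Atrnl1, an attractin-like membrane protein, was at 5.13 and 5.08, then at 6.59 and 5.38, 2.32-fold lower. In these 3 the wild-type 24 h array was high and the other arrays lay within 1 log2 unit of each other. Itga11, a collagen-binding integrin chain found on fibroblasts, was at 4.35 and 4.19, then at 5.04 and 3.60, 2.71-fold lower, with a knockout value below the level threshold. Pot1b, a telomere-end protein next to Adgre4 on chromosome 17, was at 6.15 and 6.19, then at 7.40 and 6.19, 2.32-fold lower. The histone gene H2aw was at -1.08. On the higher side, Eif3j1, a translation initiation factor, was at 4.98 and 4.79, then at 4.52 and 5.59, 2.10-fold higher. Ppp1r2, an inhibitor of protein phosphatase 1, was at 5.70 and 5.30, then at 5.0 and 6.03, 2.04-fold higher. For both the knockout 24 h array was the farthest from the rest. Fat3, an atypical cadherin, was at 1.04, the olfactory receptor gene Olfr110 at 1.12, and Dnmt3aos and Rab26os, antisense transcripts by their names, both at 1.04.

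Markers of stromal cells and fibroblasts were below 0 in knockout at both times. Of 15 stromal and fibroblast markers 10 were lower past 1.5-fold at 24 h, against 2.19% of the members, all 15 lay below 0, and the median was -0.64. At 12 h all 15 lay below 0 as well, with 4 past 1.5-fold, against 0.649% of the members, and a median of -0.41. Col1a1, a chain of collagen I, was at 8.07 in wild-type cells and 7.49 in knockout cells at 12 h and at 8.87 and 8.00 at 24 h. Sparc, a collagen-binding matrix protein, was at 6.82 and 6.38, then at 7.67 and 6.83. Pdgfra, the PDGF receptor that marks fibroblasts, was at 4.29 and 3.66, then at 5.28 and 4.31. In bulk RNA, fewer cells of a type and less RNA per cell cannot be told apart. Of 17 contractile genes 4 passed the filter. Past 1.5-fold 3 of these were lower at 24 h, against 2.19% of all members, and 0 at 12 h, against 0.649%. The 3 were Myl9 at -0.84, Tagln at -0.79 and Acta2 at -0.69. Among the 13 dimmer genes the skeletal muscle actin gene Acta1 was at 1.62 and Myh4 at 1.56, and with the filter at the 40th percentile the median of the list was -0.03 in place of -0.74. Thbs1, thrombospondin 1, which macrophages also secrete, was at 8.28 and 7.93, then at 9.58 and 8.40, 2.27-fold lower. Ccn2, a connective tissue growth factor, was at 6.86 and 6.26, then at 7.38 and 6.63, and Ccn1 was at -0.75 at 24 h. Of the proteases and inhibitors, Mmp14 was at -0.83, Mmp2 at -0.74 and Timp1 at -0.69. Without the stromal, contractile and CCN lists, 212 genes were higher and 181 lower.

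Of 41 mitosis genes 32 lay below 0 in knockout, against 46.3% of all members, with a median of -0.19. Past 1.5-fold 2 were lower and 1 higher, against 2.19% and 2.33% of all members. Plk1, a mitotic kinase, was at 7.47 and 7.38 at 12 h and at 6.57 and 5.89 at 24 h, 1.60-fold lower. Kif20a, a kinesin of cytokinesis, was at 6.95 on both 12 h arrays, then at 6.32 and 5.67, 1.57-fold lower. Both genotypes were lower at 24 h and the knockout lower still. Cks2, a partner of cyclin-dependent kinases, went the other way, at 6.17 and 6.10, then at 5.03 and 6.42. Mki67 was at -0.45 and Top2a at -0.37. Of 41 replication and S phase genes 25 lay below 0 and 16 above, with a median of -0.04, with Rrm2 at -0.45, Pcna at 0.39 and 0 past 1.5-fold. Cdkn1a, the p21 inhibitor, was at 8.55 and 8.69, then at 9.10 and 8.50, and Ccnd2, a D cyclin, was at -0.64.

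The genotype comparisons at 12 h and 24 h share no array. Of the 411 genes past 1.5-fold at 24 h, 20 were past it in the same direction at 12 h, which is 4.87% of the 24 h genes and 19.8% of the 101 at 12 h. Of all members, in either direction, 1.11% were past it at 12 h and 4.52% at 24 h. The 5 higher at both times were Acot9, Matn2, Sirpb1c, Rptoros and 6430590A07Rik. Matn2, a matrix adaptor protein, was at 3.59 in wild-type cells and 4.23 in knockout cells at 12 h and at 4.13 and 5.14 at 24 h. The 15 lower at both times were Adgre4, Csf1, Scd1, Ifit1, Ighm, Rgs16, Sema7a, Nectin1, Ehd2, Vgll3, Cnn3, Ccn2, Bmp1, Pdgfra and Postn, of which the last 3 are on the stromal list. Sema7a, a semaphorin anchored to the membrane, was at 5.57 and 4.86, then at 5.63 and 5.0. Nectin1, an adhesion molecule, was at 5.38 and 4.72, then at 5.27 and 4.40. Their values changed little between the times within each genotype. Ighm, an immunoglobulin heavy chain gene, was at -1.14 at 24 h on its brightest probe set and at -0.19 when its 7 probe sets were averaged.

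**Figure D5:**
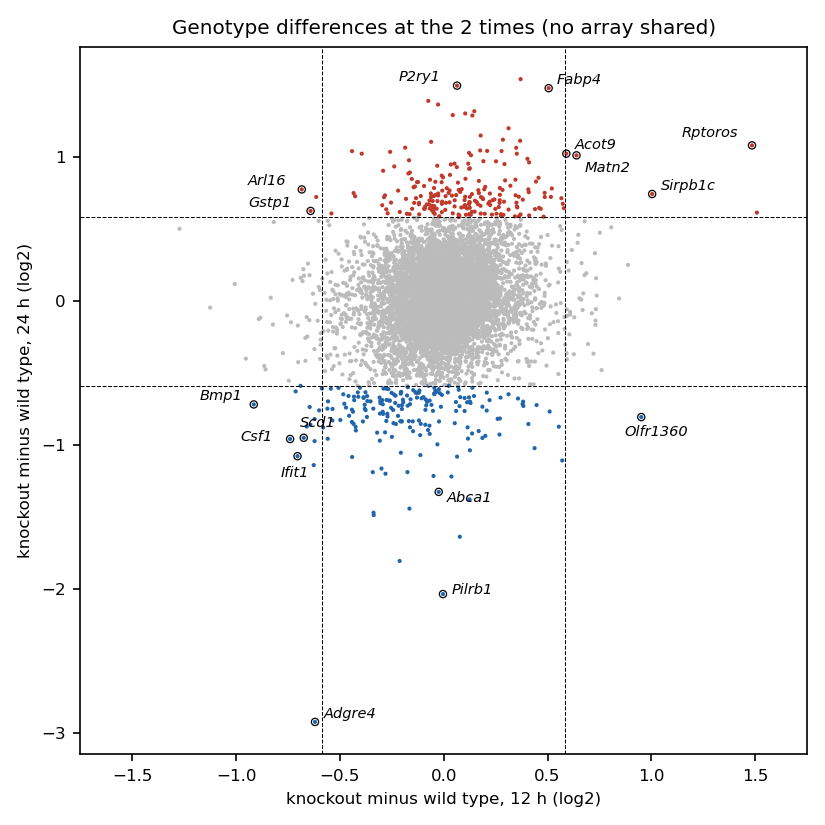
Each member gene is placed by its log2 genotype difference at 12 h (horizontal axis) and at 24 h (vertical axis), 2 comparisons with no array in common, and coloured by its 24 h difference as higher (red) or lower (blue) past 1.5-fold; dashed lines mark 1.5-fold on each axis. Of the 411 coloured genes, 5 lie in the upper right corner and 15 in the lower left, while P2ry1, Abca1 and Pilrb1 lie near 0 on the 12 h axis.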

How the data were processed

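Total RNA of 4 pools, each of 3 samples, was measured on Affymetrix whole-transcript arrays, 1 array for each genotype and time, per the labels' protocols. Before deposit the authors had turned the signals into log2 values for each probe set with RMA, a step named without its version in the submitters' processing notes. RMA removes background, gives all arrays the same distribution and combines the probes of a set, which hides any change common to all transcripts. The log2 scale was inferred from a maximum of 13.2 and array medians between 2.70 and 2.73. The sources used here do not give the authors' annotation. Raw signals were not used here, and the number of arrays limits the precision.

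Of 41345 probe sets, 23521 named 1 gene in the platform annotation, 1814 named several and 16010 none. For 1082 genes with several such probe sets the one with the highest mean was taken. Differences, counts past 1.5-fold, list medians and the array farthest from the mean of the other 3 were computed in Python 3.11.15 with pandas 2.3.3. Of these steps, the differences and the counting past 1.5-fold were tried on simulated arrays with known fold changes. The list medians and the farthest array were not. No test was run. Columns matched to no sample numbered 0. Promoters, gene order and names came from RefSeq tables of GRCm38.p6, which 9083 members matched.

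The members and 61 gene lists were chosen with earlier results of these data known, and many lists share genes. A further 6 lists were added after values were seen. The 61 lists held 1507 genes, 976 of them members. Named by rule were Hilpda, Pnpla2, Plin2, the 25 highest and 25 lowest members apart from clone, predicted, small RNA and pseudogene names, and up to 5 genes past 1.5-fold from each list, or the 2 of largest size where fewer than 2 passed. Some genes that the rule names are not reported here. Other genes were named after their values were seen. Alternatives changed the level filter, the fold rule (1.3 or 2), the scaling (median centring, quantile normalization, or loess against level, span 0.3) or the summary of genes with several probe sets (their mean).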

Additional observations from a re-analysis of the deposited data

Results flagged for a closer look

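In 4 genes the genotype difference was past 1.5-fold in opposite directions at 12 h and 24 h; with 1 array a group, the change between the times was not tested. Arl16, a small GTPase, was at 5.01 in wild-type cells and 4.33 in knockout cells at 12 h and at 4.33 and 5.11 at 24 h, so its difference was -0.68 and then 0.7782. Gstp1, a glutathione transferase, was at 7.06 and 6.42, then at 7.05 and 7.68, a difference of -0.64 and then 0.6289, with the wild-type values close together. The microRNA gene Mir101c was at 5.46 and 4.85, then at 3.35 and 4.08, differences of -0.61 and 0.7255. The olfactory receptor gene Olfr1360 was at 3.79 and 4.74, then at 4.90 and 4.10, differences of 0.95 and -0.8027. Apart from Gstp1 these genes were dim, with 24 h values from 3.35 to 5.11.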

How the results depend on the processing

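The counts of genes past 1.5-fold depended on the level filter and the fold rule. With the filter at the 40th percentile 397 genes were higher and 468 lower, and at the 75th percentile 60 and 78. A fold rule of 2 left 28 and 24, and one of 1.3 gave 648 and 545. Under the other 6 alternatives both counts stayed within 1.5 times of 212 and 199, for example 182 and 238 with median centring, which shared 381 genes with the 411, and 191 and 226 with loess, which shared 390. At the 40th percentile 9 of 60 list medians changed sign, 5 of which had been under 0.1 in size at the 60th. The other 4 were of lists with 1 to 3 members at the 60th. At the 40th they were 0.0423 for adhesion receptors, 0.0460 for neutrophil markers, -0.0685 for T and NK markers and 0.0725 for adipocyte markers. Under the other alternatives 1 to 5 list medians changed sign, all under 0.1 in size before the change. At the 75th percentile the median of osteoclast markers went from 0.007 to -0.15. Among the named genes' differences, 12 values came within 1.5-fold under an alternative, those of Abhd5, Fabp5, Mrpl22 and Bhlhe40 by a scaling and of Cd24a, Ighm and Bcl2 by the mean over probe sets, 7 passed it, and 633 kept their side. No paired analysis was possible because each group held 1 array, and no replicate could be left out. Dim genes are the least certain, since the SD of differences was 0.350 over the 2273 dimmest members and 0.202 over the 2272 brightest.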

Other observations

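Some genes past 1.5-fold were neighbours. In the order of the RefSeq gene table, restricted to members, 23 runs of 2 or 3 adjacent genes were past 1.5-fold in the same direction. Of these runs 15 were lower and 8 higher, with 49 genes in all. Of all members 2.33% were higher and 2.19% lower past 1.5-fold, so some would be adjacent in any order. How many was not worked out, so the count of runs supports nothing. Besides those named above, Serpinb1c, Serpinb6b and Serpinb9, serine protease inhibitors on chromosome 13, were higher by 0.91, 0.78 and 0.87. Il4ra and Il21r, cytokine receptor chains on chromosome 7, were at -0.63 and -0.64. Cd5l, a scavenger protein of macrophages, and Fcrl1 on chromosome 3 were higher by 0.59 and 0.70.

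Core clock genes were listed after values were seen. Of 16 members 4 were higher in knockout past 1.5-fold, against 2.33% of all members, and 0 lower. Because the list followed the values, that count supports nothing. Of the 16, 10 lay below 0, against 46.3% of all members, with a median of -0.04. Cry1, a repressor of the clock, was at 5.07 and 5.01 at 12 h and at 3.49 and 4.33 at 24 h, and Cipc, another repressor, was at 6.18 and 6.25, then at 5.67 and 6.45. Bhlhe41 and Bhlhe40 were the other 2, the latter within 1.5-fold under each of the 3 other scalings, while Per1 was at -0.06, Nr1d1 at -0.05 and Arntl at -0.25. CACGTG was in 4 of the 15 clock members with a listed promoter (26.7%, against 10.4% of all members with one), namely Bhlhe41, Cipc, Cry1 and Per1.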
